A study of Rattus norvegicus with 6 samples.

Results

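The 8 genes Hmgcs1, Idi1, Fdps, Fdft1, Sqle, Lss, Srebf2 and Insig1 belong to the cholesterol synthesis pathway and its feedback control. They were taken by symbol from a list of names, which was drawn up with earlier results of these data known, and 8 of 8 were present among the 17321 genes counted. All 8 passed the filter on low counts, which left 12276 genes for testing. None of the 8 is a receptor for cholesterol uptake, so uptake is covered here only by a second list of genes.

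The libraries are RNA sequencing of pancreatic islets from Sprague Dawley rat fetuses at gestational day 22. High glucose libraries come from fetuses of the left horn of the uterus, infused with glucose (4 mg/min, 48 h, begun on gestational day 20), and control libraries from normoglycemic fetuses in the right horn of that uterus, with 3 libraries per group in 3 pairs. A pair is taken as 1 dam, from the title stem its libraries share. Each library held islets of 2 pooled pancreata, freed with collagenase and picked by hand, and islets of both groups then spent 24 h in RPMI with 5 mM glucose before RNA was taken, so both were measured after a day in the same medium. Horn side went with treatment in every pair, and these cannot be told apart. For each of the 6 libraries the file's name carries the other horn's letter than the sample's title. Groups here follow the treatment labels, and each direction would turn round if the file names were right. Pooled fetuses of 3 dams are few, and p-values measure only the spread between these libraries.

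Cholesterol is built from acetyl units through mevalonate, isoprenoid and squalene intermediates. When sterols in the endoplasmic reticulum run low, the membrane-bound factor SREBP-2, the product of Srebf2, is carried to the Golgi, cleaved and sent to the nucleus, where it raises transcription of nearly every enzyme of the pathway, while Insig proteins hold it back when sterols are plentiful. In beta cells, membrane cholesterol is known to bear on insulin granules and on exocytosis.

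Total counts lay between 18077841 and 30993532 per library, lowest in the control library of pair 2, and the 8 genes had 134 to 6588 counts each. The libraries held other cells beside endocrine ones. Of 6 beta cell markers (Ins1, Ins2, Iapp, Slc2a2, Pdx1, Nkx6-1) 6 had counts in every library, with a summed level of 11083 to 22664 CPM (the usual per-library scaling of counts, here with TMM factors) in control and 4904 to 18405 CPM in high glucose. The 5 mesenchyme markers, led by the collagens, summed to 14464 to 34131 and 19798 to 29105 CPM. In bulk islets, fewer cells of a type and less RNA per cell cannot be told apart.

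The promoters are shown because SREBP-2 acts on such genes beside the general factors NF-Y and Sp1. RefSeq's table (GRCr8 build, which is not the rn6 build of the counts) held a promoter for 6 of the 8 genes, not for Sqle and Fdft1. The 250 bases before the start are printed 5′ to 3′ on the gene's strand. They are given for the earliest pathway enzyme among the 8 genes, the most abundant one and both regulators. Capitals mark the NF-Y box CCAAT on either strand (ATTGG on the opposite one) and, in Srebf2, a match to the shortened sterol element TCACNCCA.
Hmgcs1, GRCr8 chr2:53382054-53382303, plus strand: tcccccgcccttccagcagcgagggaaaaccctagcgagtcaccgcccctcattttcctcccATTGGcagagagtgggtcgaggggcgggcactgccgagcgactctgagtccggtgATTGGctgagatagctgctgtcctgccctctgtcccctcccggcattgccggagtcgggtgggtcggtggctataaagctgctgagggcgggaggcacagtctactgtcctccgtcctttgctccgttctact
Fdps, GRCr8 chr2:176804817-176805066, minus strand: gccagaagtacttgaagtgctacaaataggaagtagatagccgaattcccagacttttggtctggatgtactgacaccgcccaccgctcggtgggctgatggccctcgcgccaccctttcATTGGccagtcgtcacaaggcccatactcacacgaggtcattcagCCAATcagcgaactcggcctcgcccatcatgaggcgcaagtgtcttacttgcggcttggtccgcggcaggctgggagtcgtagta
Srebf2, GRCr8 chr7:115543057-115543306, plus strand: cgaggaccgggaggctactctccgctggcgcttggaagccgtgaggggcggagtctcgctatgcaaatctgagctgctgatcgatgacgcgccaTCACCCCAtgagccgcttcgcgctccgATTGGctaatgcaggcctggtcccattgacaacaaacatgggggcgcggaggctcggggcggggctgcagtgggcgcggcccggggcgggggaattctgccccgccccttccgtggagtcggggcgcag
Insig1, GRCr8 chr4:8057770-8058019, minus strand: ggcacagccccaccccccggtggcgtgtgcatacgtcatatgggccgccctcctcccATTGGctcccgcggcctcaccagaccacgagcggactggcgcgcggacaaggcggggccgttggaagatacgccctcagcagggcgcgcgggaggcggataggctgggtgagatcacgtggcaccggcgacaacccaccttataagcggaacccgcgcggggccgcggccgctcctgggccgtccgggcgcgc

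CCAAT was found on either strand in 6 of these 6 promoters, and in 34% of all 33469 promoters of the same length (34.6% of the 9970 whose gene was tested here). Hmgcs1, Fdps and Idi1 held 2 each. The Sp1 box GGGCGG was found in 5 of 6, all but Idi1, against 30.5% of all promoters and 57.5% of those of tested genes. The sterol element TCACNCCAC was in none of the 6 and in 0.974% of all promoters. Its first letters, TCACNCCA, were searched after that result was known and occurred in Srebf2 alone, 156 bases before the start, and in 3.24% of all promoters. The E-box CACGTG, a second kind of site for SREBP proteins, was in Insig1 alone, against 5.59% of all promoters. Among 13 other enzymes of the pathway with a promoter in the table, 10 held CCAAT, 11 the Sp1 box and 0 the full sterol element. These are matches of letters in a fixed window and say nothing on binding. Only the spellings given here were searched, so a sterol element spelled otherwise would be missed.

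Levels between genes were compared as TPM, counts per transcript length scaled to the same sum in each library. Fdps, which makes farnesyl pyrophosphate, was the most abundant, at 247 ± 32.6 TPM (SD, 6 libraries). It stood above Hmgcs1 in 6 of 6 libraries, by 2.06 ± 0.21 on the log2 scale. Hmgcs1, which makes HMG-CoA, measured 60.3 ± 14.5 TPM, and Sqle (squalene epoxidase, the first oxygen-dependent step to sterols) 55.4 ± 18.7 TPM. Srebf2 followed at 43.2 ± 9.29 TPM, Fdft1 (squalene synthase) at 35.1 ± 7.55 TPM, Idi1 (isopentenyl diphosphate isomerase) at 29.0 ± 15.3 TPM and Insig1 at 28.4 ± 17.4 TPM. Lss, lanosterol synthase, was the lowest at 9.99 ± 5.30 TPM and stood under Insig1 in 6 of 6 libraries. The order between these ends was not fixed. Hmgcs1 exceeded Sqle in 5 libraries, Sqle exceeded Srebf2 in 4, and Idi1 exceeded Insig1 in 4 of 6, with mean log2 ratios of 0.16 ± 0.25, 0.32 ± 0.39 and 0.08 ± 0.49. Srebf2 over Fdft1 and Fdft1 over Idi1 held in 5 libraries each, at 0.30 ± 0.34 and 0.39 ± 0.50. In the order by level, Fdps and Lss therefore stood apart from their neighbours, and the 6 genes between them differed from the next by less than the spread of the log2 ratio.

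**Figure D1:**
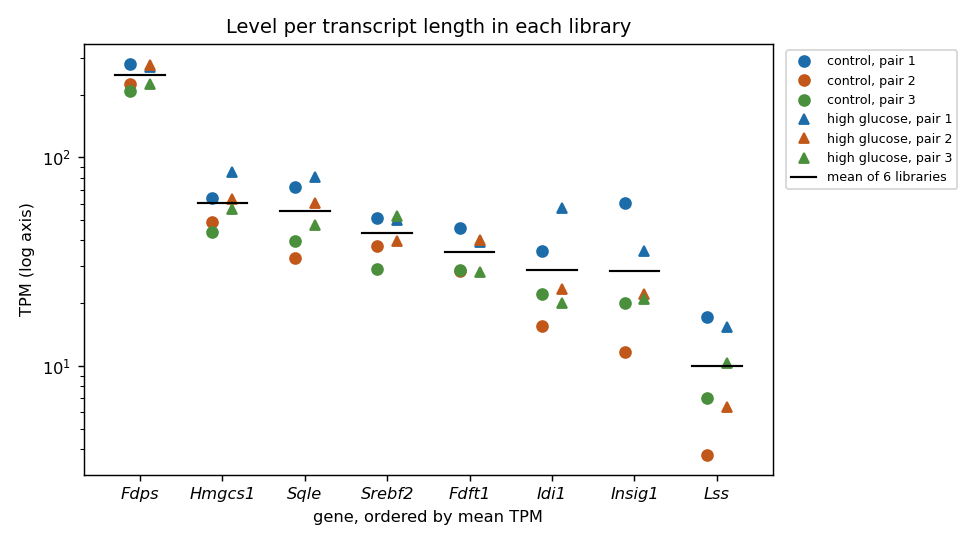
TPM of each gene (log axis) in the 3 control libraries (circles) and the 3 high glucose libraries (triangles), coloured by dam pair, with the mean of the 6 libraries as a line. Fdps (mean 247) lies above and Lss (mean 9.99) below the other genes in each library, while the 6 genes between overlap.

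The comparison of high glucose with control asks how hyperglycemia in the fetus altered transcript levels in its islets. None of the 8 passed, in either direction (edgeR quasi-likelihood test with the dam as a block, adjusted p = 0.9996 for each). Among all tested genes 0.0163% passed, 2 of 12276, and a count of 0 in 8 is near that background. At an unadjusted p below 0.05 there were 0 of the 8, against 4.82% of all genes, and DESeq2 and limma voom also called 0 of the 8. In all 8 genes the 2 groups overlapped, whereas 3.31% of all genes had groups that did not. The fitted log2 difference (high glucose minus control) was above 0 for 6 genes and below 0 for 2. Of all tested genes 50.7% were above 0. The median was 0.25 for the 8 genes, beside 0.00 over all tested genes. As fold changes, the upper 95% bounds ran from 1.36 for Fdps and Fdft1 to 1.81 for Idi1. The lower bounds ran from 0.603 for Insig1 to 0.930 for Hmgcs1. Changes within each gene's bounds are therefore not excluded by these data, and the smallest change that could be detected was not computed.

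Among the enzymes before squalene, Hmgcs1 (rn6 chromosome 2, 52427579 to 52445082) measured 111, 124.1 and 95.5 CPM in the control libraries of pairs 1 to 3 and 155, 158 and 99.0 CPM in high glucose. It was higher in high glucose in 3 of 3 pairs, but the difference in pair 3 was close to 0, and the high glucose library of pair 3 lay below both other controls. The fitted log2 difference was 0.29 (SE 0.18, 95% interval -0.10 to 0.69, edgeR adjusted p = 0.9996). Idi1 (chromosome 17, 57976266 to 57984036) measured 53.4, 34.0 and 41.4 CPM in control and 89.5, 50.5 and 30.0 CPM in high glucose. Its high glucose libraries held both the highest and the lowest value of the 6. The fitted log2 difference was 0.29 (SE 0.25), with 0.74, 0.57 and -0.47 within pairs 1 to 3. It was 0.05 without pair 1, 0.14 without pair 2 and 0.66 without pair 3 (edgeR adjusted p = 0.503 in the last).

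Fdps (chromosome 2, 188403595 to 188413219) was at 191, 221 and 175 CPM in control and 191, 271 and 152 CPM in high glucose. The values of pair 1 were alike, that of high glucose was higher in pair 2 and lower in pair 3, and the fitted log2 difference was 0.03 (SE 0.19, 95% interval -0.38 to 0.44). Fdft1 (chromosome 15, 46339248 to 46367302), which joins the products of Fdps into squalene, was at 77.0, 70.0 and 60.5 CPM in control and 68.9, 97.1 and 47.6 CPM in high glucose. Its direction also differed between pairs, with log2 differences of -0.16, 0.47 and -0.35 and a fitted value of -0.01 (SE 0.21, 95% interval -0.47 to 0.44).

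After squalene, Sqle (chromosome 7, 99609929 to 99624803) measured 78.8, 52.5 and 54.0 CPM in control and 92.3, 95.4 and 51.9 CPM in high glucose. Its fitted log2 difference of 0.34 (SE 0.21, 95% interval -0.13 to 0.81) was the highest of the 8 genes and came mostly from pair 2, where the difference was 0.86 against 0.23 in pair 1 and -0.06 in pair 3. The fitted value was 0.09 without pair 2 and 0.54 without pair 3 (edgeR adjusted p = 0.849 in the last). Lss (chromosome 20, 12844522 to 12870474), which closes the sterol rings, measured 26.1, 8.28 and 13.3 CPM in control and 24.4, 13.9 and 15.7 CPM in high glucose. Both libraries of pair 1 lay above the 4 others. The fitted log2 difference of Lss was 0.29 (SE 0.24), with -0.10, 0.74 and 0.24 within pairs, and was 0.07 without pair 2 and 0.49 without pair 1.

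Of the regulators, Srebf2 (chromosome 7, 123381082 to 123438605) measured 136, 146 and 96.4 CPM in control and 139, 152 and 140 CPM in high glucose. It was higher in high glucose in 3 of 3 pairs, with log2 differences of 0.04, 0.05 and 0.54, so pair 3 carried the fitted value of 0.21 (SE 0.19), which was 0.05 without that pair. Hmgcs1 and Srebf2 were the 2 of 8 genes higher in all 3 pairs, and 11.7% of all tested genes were. Pair 3, where Srebf2 differed most, was the pair in which 5 of the 6 enzymes had their lowest difference, Lss being the exception. Insig1 (chromosome 4, 342302 to 350515), the sterol-dependent brake on SREBP-2, varied most. It measured 77.9, 21.9 and 32.2 CPM in control and 48.0, 40.8 and 27.1 CPM in high glucose, a 3.55-fold range between the libraries. The log2 differences were -0.70, 0.89 and -0.25, and the fitted value was -0.03 (SE 0.30, 95% interval -0.73 to 0.67). In pair 1 Insig1 was lower in high glucose, and so were Fdft1 (-0.16) and Lss (-0.10). Hmgcs1, Idi1 and Sqle were higher in that pair, and Fdps and Srebf2 were nearly level (0.00 and 0.04). In pair 2 all 8 genes were higher.

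**Figure D2:**
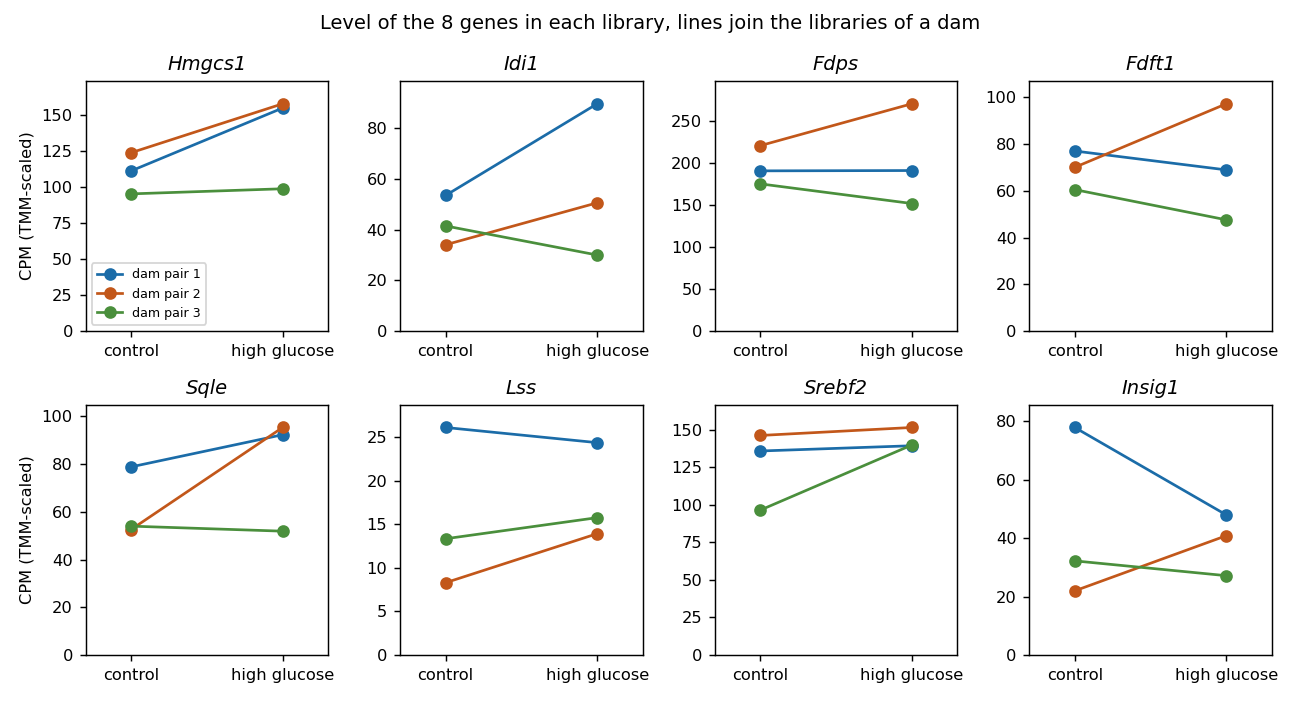
CPM (linear axes from 0) of the 8 genes in each library, with a line joining the control and the high glucose library of each dam. In pair 2 each gene is higher in high glucose, while those of pairs 1 and 3 go both ways, for example from 77.9 down to 48.0 for Insig1 in pair 1.

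**Figure D3:**
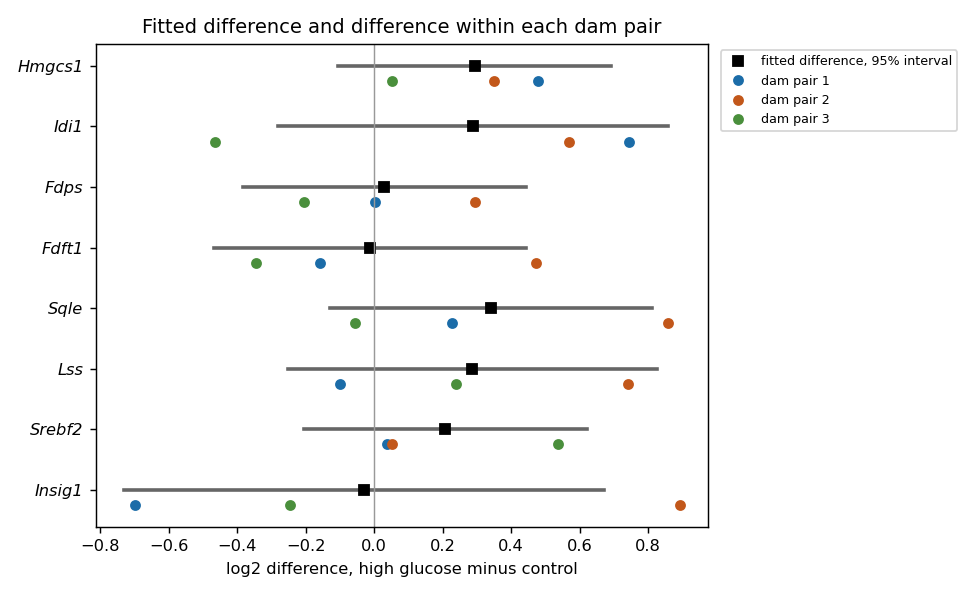
Fitted log2 difference of high glucose minus control (squares) with its 95% interval (bars), and the log2 CPM difference within each dam pair (coloured points). Each of the 8 intervals includes 0, and the points of Insig1 run from -0.70 to 0.89.

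The values within single pairs were then set side by side. Each pair holds 1 library per horn, so a difference between dams in the response cannot be told apart from variation between single libraries, and it was not tested. In pair 2, 8 of 8 genes were higher in high glucose (52.2% of all tested genes were), with a median log2 difference of 0.52. In pair 1, 5 of 8 were higher (median 0.02, 50.1% of all genes), and in pair 3, 3 of 8 (median -0.13, 48.7% of all genes). The same held for 16 other enzymes of the pathway, of which 14 were higher in pair 2, 7 in pair 1 and 1 in pair 3, with medians of 0.18, -0.01 and -0.26. Without pair 2 the median over the 8 genes was 0.08. Marker levels also differed in pair 2. The summed endothelial markers were 0.365 times the control in high glucose, the acinar markers 1.48 times, and the beta cell markers 0.797 times. The beta cell sum was mostly Ins1 and Ins2. Singly, 2 of the 6 beta cell markers were higher in that pair, Slc2a2 (15.8 CPM in control, 30.1 in high glucose) and Iapp, and the others were lower. Among single endocrine hormones of other cell types in pair 2, Gcg of alpha cells was 1.74 times and Sst of delta cells 0.430 times the control. The red cell markers (Hbb and Alas2) were lower in high glucose in each pair, at 0.105, 0.424 and 0.236 times the control in pairs 1 to 3. In pair 3, where 3 of the 8 genes were higher, the acinar markers were 22.8 times and the beta cell markers 0.216 times the control. Of the 5 tested acinar markers 4 were higher in that pair, led by Ctrb1 (16.3 CPM in control, 389 in high glucose). The other, Cela1, was level (3.65 and 3.58 CPM). The summed cycling markers (Mki67, Top2a, Ccnb1, Cdk1) were 1.07, 1.14 and 1.49 times the control in pairs 1 to 3. Singly, 3, 4 and 3 of these 4 were higher in pairs 1 to 3. The sum in pair 3 rose mostly with Mki67 (52.4 CPM in control, 168 in high glucose), while Ccnb1 was lower there (70.4 and 64.9 CPM). Of the 6 acinar markers Pnlip was at 0 to 2 counts, and of the 5 mesenchyme markers Col1a2 was at 1 to 12 counts. Over the 3 pairs, the acinar sum was 26.9 to 817 CPM in control and 121 to 1209 CPM in high glucose, and the endothelial sum 523 to 624 and 204 to 538 CPM. The control library of pair 2 was also the shallowest. The part of these values in the differences of the 8 genes was not tested.

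**Figure D4:**
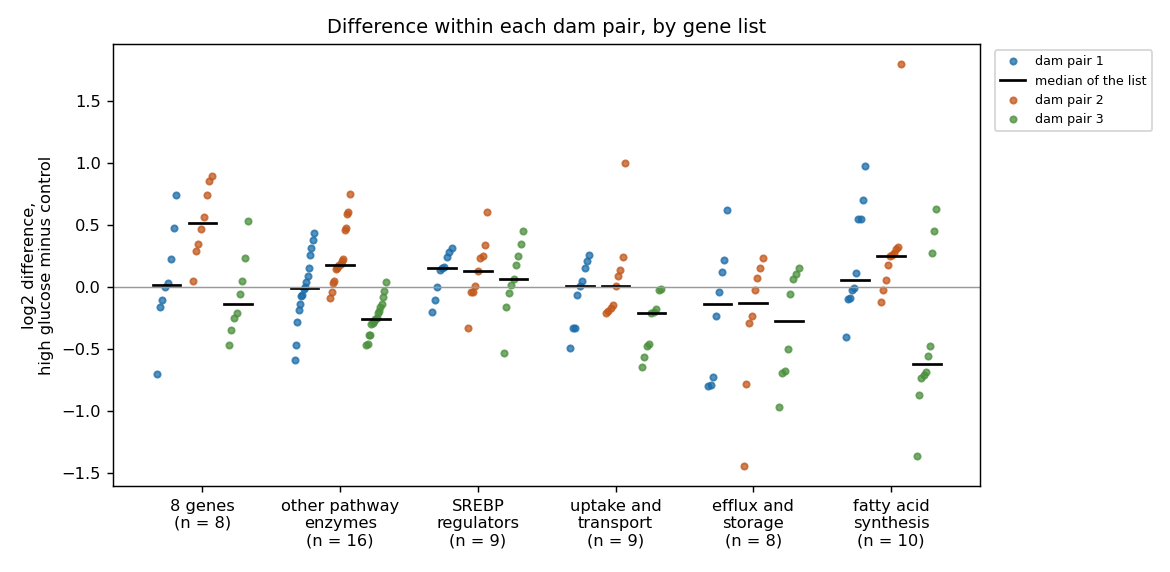
Log2 difference of high glucose minus control within each dam pair for each tested gene (points) of 6 lists, with the list's median as a line. The 8 genes and the other pathway enzymes have their highest median in pair 2 (0.52 and 0.18) and their lowest in pair 3 (-0.13 and -0.26). The fatty acid genes have the same order, with 0.26 in pair 2 and -0.62 in pair 3.

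Levels were next compared between the 3 dams, whatever the horn. Of the 8 genes 1 differed between dams, Lss (edgeR quasi-likelihood F-test, adjusted p = 0.0318), with a mean of 25.2 CPM in pair 1, 11.1 CPM in pair 2 and 14.5 CPM in pair 3. Among all tested genes 22.8% differed, and 1 of 8 genes (12.5%) is below that share. Idi1 had 71.4, 42.3 and 35.7 CPM (adjusted p = 0.0831, the same edgeR test) and Insig1 62.9, 31.4 and 29.7 CPM (adjusted p = 0.0879, edgeR). DESeq2 called these 2 beside Lss, and 32.1% of all genes. Lss, Idi1, Insig1 and Sqle (85.6, 74.0 and 52.9 CPM) had their highest mean in pair 1. Fdps (191, 246 and 164 CPM), Fdft1 (72.9, 83.6 and 54.0 CPM), Hmgcs1 (133, 141 and 97.3 CPM) and Srebf2 (138, 149 and 118 CPM) had theirs in pair 2 and their lowest in pair 3, and none of these 4 passed. Dam and the handling of its islets cannot be told apart in this comparison.

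Across the 6 libraries the levels of the 8 genes mostly varied in the same direction. Pearson's r of log2 CPM was above 0 in 27 of the 28 gene pairs, with a median of 0.51. The same share was not computed for pairs of other genes, so whether this count is unusual is not known. These points share libraries, dams and scaling factors, so the values describe the libraries only. The highest were Fdps with Fdft1 (r = 0.92, Spearman's rho = 0.83), which make and use farnesyl pyrophosphate, Lss with Insig1 (r = 0.87, rho = 0.83) and Sqle with Idi1 (r = 0.84, rho = 0.83). The pair below 0 was Fdps with Lss (r = -0.29, rho = -0.26), and Srebf2 was near 0 with Lss (r = 0.02), Insig1 (r = 0.05) and Idi1 (r = 0.09). The mean standardised log2 CPM of the 8 genes was highest in the high glucose libraries of pair 2 (0.79) and pair 1 (0.69) and lowest in both libraries of pair 3 (-0.79 in high glucose, -0.76 in control). The summed level of the 16 other enzymes had r = 0.90 with this mean over 6 libraries, but taken singly these enzymes had a median r of 0.56, from -0.23 to 0.93, and 4 of 16 were above 0.8. The summed level of cycling markers had r = 0.63, the alpha cell marker Gcg r = 0.50, red cell markers r = 0.24, immune markers r = 0.21, acinar markers r = 0.20, beta cell markers r = 0.18, the delta cell marker Sst r = 0.16 and endothelial markers r = -0.55. The summed mesenchyme markers had r = -0.70, while the 4 tested markers of that list went both ways when taken singly, with a median r of -0.13 and a range of -0.75 to 0.42.

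The genes outside the 8 whose log2 CPM followed that mean most closely over the 6 libraries, among 11498 candidates, were Twistnb (a subunit of RNA polymerase I, r = 0.99, rho = 0.94), Eri1 (an exoribonuclease that acts on histone mRNA, r = 0.98, rho = 0.83), Chka (choline kinase, which starts phosphatidylcholine synthesis, r = 0.98, rho = 0.94), Haus3, Foxc1, Apoh, Aloxe3, Fzd7, Rad17 and Agtr1a, with r between 0.96 and 0.99. Apoh (0.12 to 1.92 CPM) and Aloxe3 (0.62 to 1.71 CPM) were at low levels, so their r rests on few counts. None of the 10 is in a list of sterol genes. Over all tested genes the median r with this mean was 0.02, and 232 genes had r above 0.8.

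Other genes of sterol metabolism were counted by list, and in each list 0 genes passed in the comparison of high glucose with control. The counts of fitted values above or below 0 in these lists stand beside 50.7% above 0 over all tested genes. Of the 16 other enzymes, 7 had a fitted log2 difference above 0 and 9 below, with a median of -0.01 and a range of -0.23 to 0.32. The smallest p belonged to Nsdhl, a sterol demethylation enzyme, at 38.7, 40.0 and 35.4 CPM in control and 35.3, 37.7 and 25.7 CPM in high glucose, followed by Acat2, cytosolic acetoacetyl-CoA thiolase, with a log2 difference of -0.23 (SE 0.23), and Tm7sf2, a sterol reductase, with 0.32 (SE 0.35). Of 9 tested SREBP regulators 6 were above 0 (median 0.09), and 5 were higher in all 3 pairs, again beside 11.7% of all genes. Srebf1, which encodes the SREBP proteins of fatty acid synthesis, was among them, at 55.8, 42.3 and 47.8 CPM in control and 67.9, 46.3 and 60.9 CPM in high glucose, a log2 difference of 0.25 (SE 0.18, edgeR adjusted p = 0.9996). So were Mbtps2, a protease that releases SREBP, with 0.40 (SE 0.29), and Rnf145, a ubiquitin ligase of the sterol response, with 0.24 (SE 0.17).

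Of 9 tested genes of uptake and intracellular transport, 6 had a log2 difference below 0 (median -0.09), and in pair 3 this held for 9 of 9. The smallest p was that of Scarb1, the receptor for high-density lipoprotein, which measured 103, 75.9 and 89.6 CPM in control and 81.8, 65.8 and 57.2 CPM in high glucose. It was lower in 3 of 3 pairs, and 11.3% of all tested genes were, with a log2 difference of -0.40 (SE 0.18, edgeR adjusted p = 0.9996). Lipa, the lysosomal lipase that frees cholesterol from its esters, had -0.22 (SE 0.20) and Npc2, which moves cholesterol out of lysosomes, -0.15 (SE 0.19).

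Of 8 genes of efflux and storage, 7 were below 0 (median -0.23), of which Abca1 (-0.02) and Nr1h2 (-0.07) were close to 0. Lower in all 3 pairs were 2 of the 8, beside 11.3% of all tested genes. Nr1h3, the oxysterol receptor LXR alpha, measured 31.7, 44.6 and 27.3 CPM in control and 19.2, 25.9 and 16.9 CPM in high glucose, so the groups did not overlap. Its log2 differences were -0.72, -0.78 and -0.69 in pairs 1 to 3 and its fitted value was -0.73 (SE 0.20), and it did not pass (edgeR adjusted p = 0.498). The macrophage and leukocyte markers C1qa, C1qb, C1qc and Ptprc were lower in the same libraries, with a summed level of 496 to 624 CPM in control and 241 to 412 CPM in high glucose, and their part in the Nr1h3 difference was not tested. Cyp27a1 and Ch25h, which make oxysterols, had log2 differences of -0.73 (SE 0.38) and -0.51 (SE 0.34). Their values were less even between pairs 1 to 3, with -0.80, -1.44 and 0.07 for Cyp27a1 and -0.79, -0.02 and -0.68 for Ch25h. Of 10 fatty acid genes driven by SREBP proteins 7 were above 0 (median 0.13), with a median of -0.62 in pair 3, and Acss2, Acaca and Elovl5, the 3 with the smallest p, had fitted values of -0.33, 0.28 and -0.27.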

How the data were processed

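The authors deposited, for each library, the count of sequenced fragments assigned to each gene, obtained with featureCounts 1.5.1 (strand setting 2, mapping quality of at least 10) on rn6 with the refGene annotation, per the file headers. STAR 2.5 and edgeR 3.12.1 are named in the submitters' processing notes. Libraries were made with a stranded mRNA kit, per the labels' protocols. Exon lengths (other values in the same deposited files, per the file headers) were used for TPM. The quality minimum drops fragments that map to several places, which lowers the counts of genes with near-identical copies.

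The main test was the quasi-likelihood test of edgeR 4.0.16 (R 4.3.3, with TMM factors, filterByExpr by treatment, robust fit, dam block plus treatment, Benjamini-Hochberg over 12276 genes, threshold 0.05), and the dam term was tested in the same fit. The SE is the log2 difference divided by the root of F. Within-pair differences use log2 CPM with a prior count of 2. Alternatives used DESeq2 1.42.0 and limma 3.58.1. The procedure was tested on simulated data.

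Pairs come from title stems shared by a left and a right library, following the series design. Deviations from group means correlated across genes at 0.474, 0.621 and 0.413 within pairs. Between libraries of different pairs and different groups they correlated at -0.454 to -0.004. Deviations from a group mean cancel within that group, which bears on all of these values.

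Named genes were the 8 members, up to 3 per list by smallest p, and the 10 genes (mean count of at least 20) most like the members' mean profile. Members and lists were chosen with earlier results of these data known. The list of acinar enzyme genes left out of library sizes was written after the files were seen.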

Additional observations from a re-analysis of the deposited data

How the results depend on the processing

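Under 11 alternatives, 0 of the 8 genes passed in the comparison of high glucose with control. At an unadjusted p below 0.05 there were 2 of the 8 without replicate 3, Idi1 and Sqle, and 0 under the others. Of 88 values of single genes under these alternatives, 82 kept the sign of the reported difference. The others belong to genes near 0. With no replicate block the Fdft1 log2 difference was 0.042. Those of Fdft1, Insig1 and Fdps ranged from -0.25 to 0.16, from -0.47 to 0.32 and from -0.10 to 0.15 when 1 pair was left out (without replicate 1, 2 or 3). Those of Idi1, Sqle, Lss, Srebf2 and Hmgcs1 stayed above 0 and ranged from 0.05 to 0.66, 0.09 to 0.54, 0.07 to 0.49, 0.05 to 0.29 and 0.20 to 0.42. The median over the 8 genes ranged from 0.08 to 0.24 without 1 pair, and was 0.18 with no replicate block. The paired fit and the one with no replicate block made the same 0 calls among the 8.

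Over all genes the 2 calls became 0 with no replicate block (192 genes at an unadjusted p below 0.05), 4 with upper-quartile normalization, 4 with limma voom, 5 where the mean count had to reach 50, 18 without a filter and 106 with DESeq2, and 18 to 55 without 1 pair. They stayed at 2 with RLE normalization and with acinar enzyme genes left out of the library sizes. Between dams, DESeq2 called 3 of the 8 genes, and every other alternative run for this comparison called Lss alone (no pair was left out there). Depth was 134 counts or more for each of the 8 genes in each library. With 3 pairs, the number of pairs limits the precision.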
